A study of Mus musculus with 2 samples.

Results

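The cells described here were chosen by the raw counts of a few transcripts from a droplet study of the mouse forebrain at embryonic day 18.5. A cell was taken where it held at least 2 UMIs (unique molecular identifiers, each counting 1 captured transcript) of Tbr1 and at least 3 of Tle4 and Foxp2 together. It also had to hold at most 2 UMIs of Bcl11b, at most 2 of Nxph4 and Cplx3 together, none of Tfap2d, at most 10 of Reln and at most 1 of Dlx1, Dlx2 and Dlx6os1 together. Of 21941 called cells, 225 met this rule, 117 of 12855 in the library labelled Cyfip2 knockout and 108 of 9086 in the wild-type library. Each library was made from 2 pooled forebrains, so each genotype has 1 library, and no test between genotypes was possible. The labels name no strain, no Cre line and no sex, and do not say which part of Cyfip2 the knockout allele removes.

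Tbr1 encodes a T-box transcription factor of early-born glutamatergic neurons of the cortex, and in mice without it the axons of layer 6 do not form their normal projection to the thalamus. Layer 6 corticothalamic neurons are also known for Tle4, a co-repressor, and Foxp2, a forkhead factor, while Bcl11b (Ctip2) is at its highest in layer 5 neurons that project below the cortex. In the embryo Tbr1 follows Eomes (Tbr2), the factor of intermediate progenitors, so newly made neurons of any layer can carry it for a time. Cyfip2 encodes a subunit of the WAVE complex, which drives branching of actin filaments. In the mm10 genome Tbr1 lies on chromosome 2 from 61802930 to 61814114, Tle4 on chromosome 19 from 14448150 to 14598051, Foxp2 on chromosome 6 from 14901349 to 15441977 and Cyfip2 on chromosome 11 from 46193850 to 46312859.

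The gated cells held 1455003 UMIs in the knockout-labelled library and 1495527 UMIs in the wild-type library. Their median depth was 10976 UMIs (range 1296 to 35756) in knockout-labelled cells and 13005.5 UMIs (range 2700 to 46324) in wild-type cells. Between the libraries 32 barcodes of called cells were shared, and none was gated in both. Scrublet marked 16 (13.7%) of the knockout-labelled and 6 (5.56%) of the wild-type gated cells as likely doublets, and these were kept in the values below. Levels are given as CPM, the UMIs of a gene in 1e6 UMIs summed over the gated cells. Intervals are exact at 95% and cover counting error only, not the spread between animals or between cells.

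The label of layer 6 corticothalamic neurons held for a minority of these cells. Of the genes on the layer 6 corticothalamic list that the rule did not use, some were low and others were not in the gated cells as a whole. Hs3st4, a heparan sulfate sulfotransferase, stood at 32.3 CPM in knockout-labelled and 52.2 CPM in wild-type gated cells, and Syt6, a synaptotagmin, at 17.2 and 29.4 CPM. Crym, which binds thyroid hormone, had 4 UMIs in the knockout-labelled and 11 UMIs in the wild-type library, while Sox5 (364 and 374 CPM), Nfia (641 and 720 CPM) and Rprm (131 and 104 CPM) were more abundant. At the same time Eomes reached 320 CPM in knockout-labelled and 219 CPM in wild-type cells, and Neurod1, a bHLH factor of newly born neurons, 203 and 235 CPM. The cells are therefore called Tbr1-gated cells.

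Most cells that met the minimum counts were held out by Bcl11b. In the knockout-labelled library 698 cells passed the Tbr1 minimum and the minimum on Tle4 with Foxp2, and in the wild-type library 473 did. Of these, 518 (74.2%) in the knockout-labelled and 324 (68.5%) in the wild-type library held more than 2 UMIs of Bcl11b, and 358 and 269 of them broke no other limit. In those 627 cells Hs3st4 stood at 209 CPM in the knockout-labelled and 209 CPM in the wild-type library, Rprm, a p53-induced cell cycle regulator used as a layer 6 marker, at 440 and 517 CPM, and Crym at 71.7 and 120 CPM. Eomes was at 36.3 CPM in the knockout-labelled and 17.4 CPM in the wild-type cells held out. Over both libraries the Tbr1-gated cells had 42.4 CPM of Hs3st4, 117 CPM of Rprm, 369 CPM of Sox5 and 14.2 CPM of Zfpm2 (Fog2), against 209, 476, 647 and 68.4 CPM in the cells held out by Bcl11b alone. Sox5 is a SoxD factor of deep-layer neurons, and Zfpm2 a cofactor of GATA factors found in corticothalamic neurons. The other ceilings were broken less often: that on the Dlx genes by 115 knockout-labelled and 33 wild-type cells, Tfap2d by 84 and 40, Reln by 30 and 13, and Nxph4 with Cplx3 by 26 and 20.

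The cells just inside and just outside each limit compared as follows. Gated cells with 1 or 2 Bcl11b UMIs (109 cells) had 81.2 CPM of Hs3st4 and 207 CPM of Eomes, and cells with 3 or 4 (88 cells, all other limits met) had 157 and 80.0 CPM. Cells with exactly 3 UMIs of Tle4 and Foxp2 (107 cells) had 7.8 CPM of Hs3st4 and 307 CPM of Eomes, and those with 2, just outside (186 cells), 9.8 and 185 CPM. Cells with exactly 2 Tbr1 UMIs (82 cells) had 30.1 CPM of Hs3st4 and 374 CPM of Eomes, and those with 1 (160 cells) 30.0 and 322 CPM. At the Tbr1 limit Eomes stood at 436 CPM inside and 315 CPM outside in the knockout-labelled library, and at 284 and 330 CPM in the wild-type library. These values describe the edges of the rule and carry no test.

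**Figure D1:**
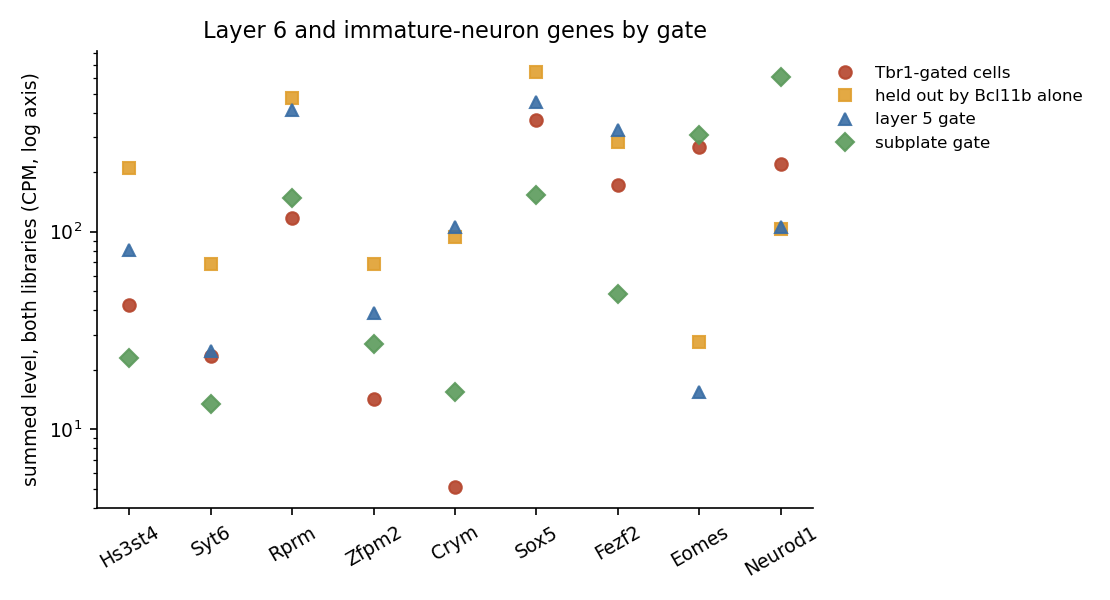
Level of 9 genes (CPM, log axis, UMIs of both libraries summed) in the Tbr1-gated cells, in cells held out of the gate by Bcl11b alone and in 2 comparison gates. The Tbr1-gated cells lie below the Bcl11b-rich cells for all 7 deep-layer genes on the left and above them for Eomes and Neurod1.

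The values that chose the cells were close to their minimum. Tbr1 had a median of 3 UMIs per cell in both libraries, with a highest cell of 15 in the knockout-labelled and 13 in the wild-type library. Tle4 also had a median of 3, with UMIs in 90 of 117 knockout-labelled and 96 of 108 wild-type cells. Foxp2 had a median of 1, with UMIs in 75 knockout-labelled and 70 wild-type cells. Tle4 alone let in 80 cells (42 knockout-labelled and 38 wild-type), Foxp2 alone 39 (27 and 12), and the other 106 (48 and 58) held both. The route of entry went with what the cells held: Eomes stood at 557 CPM in the Foxp2-only cells, 321 CPM in cells with both and 59.7 CPM in the Tle4-only cells. Hs3st4 stood at 3.88, 61.6 and 36.0 CPM in the same order, and Sox5 at 225, 530 and 228 CPM. Because minimum and ceilings are raw counts, depth decided membership for many cells. Called cells of at least 5000 UMIs were thinned to 5000 UMIs. The rule then took 49 of 9151 such cells in the knockout-labelled and 39 of 6992 in the wild-type library. Of the cells it took, only 14 and 19 had been members before. The 3704 knockout-labelled and 2094 wild-type called cells of lower depth, with 23 and 20 gated cells among them, were left out.

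Clustering of the gated cells of both libraries together, without the genes of the rule, gave 6 subgroups, described here by their leading genes. The largest, 51 cells, was led by Eomes (866 CPM), Btbd17, Neurog2 (389 CPM), the proneural factor of cortical progenitors, Uaca, Abca1 and Mfng, a modifier of Notch. The second, 46 cells, was led by Calb2, Tac2, Nhlh2, Sema3c, Rnd2 and Pdzrn3 and had 507 CPM of Neurod1 and 1601 CPM of Zbtb20, a factor of hippocampal neurons that glial progenitors also carry. Of its 43 cells without non-neural markers only 8 held a Calb2 UMI and 4 a Tac2 UMI, while 39 held Sema3c and 35 Rnd2. The name Calb2 subgroup below is thus a label, not a trait of most of its cells. The third, 44 cells, was led by Fn1, Rbm24, Ptprz1 (1029 CPM), Tafa2, Cdh12 and Plxna4. The fourth, 37 cells, was led by Npy (2595 CPM), Cxxc4, Nrip1, Runx1t1, Ldb2 and Gucy1a1 and had 645 CPM of Fezf2, the selector of subcerebral neurons, and 1159 CPM of Sox5. The fifth, 22 cells, was led by Top2a (1383 CPM), Pclaf, Hist1h1b, Mki67, Hmgb2 and Cenpf, all genes of dividing cells, and also held 447 CPM of Eomes.

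The last subgroup, 25 cells, was led by Adcy1 (432 CPM), Hs3st4 (532 CPM), Syt6 (326 CPM), Cdh13, Nxph3 (213 CPM) and Islr2 and is called layer 6 corticothalamic-like. Tle4 (1417 CPM), Tbr1 (625 CPM) and Foxp2 (333 CPM) are genes of the rule, whose raw minimum sets a higher CPM in a shallow cell. Among genes outside the rule, the subgroup had 725 CPM of Rprm, 732 CPM of Sox5, 140 CPM of Grik3, a kainate receptor subunit, 106 CPM of Zfpm2 and 59.9 CPM of Crym. In the other 5 subgroups Hs3st4 lay between 1.7 and 50.1 CPM, and Grik3 between 0 and 17.3 CPM. Eomes was at 6.7 CPM, Neurod1 at 13.3 CPM and Zbtb20 at 6.7 CPM in this subgroup, and Top2a and Neurog2 had no UMI. Its cells were shallow, with a median of 4592 UMIs against 9932.5 to 21148.5 UMIs in the others. Bcl11b, whose raw ceiling allows a higher CPM in a shallow cell, stood at 206 CPM in the subgroup against 25.2 to 71.0 CPM elsewhere. None of the 39 cells that entered by Foxp2 alone was in it, while 8 of the Tle4-only cells and 17 of the cells with both were.

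**Figure D2:**
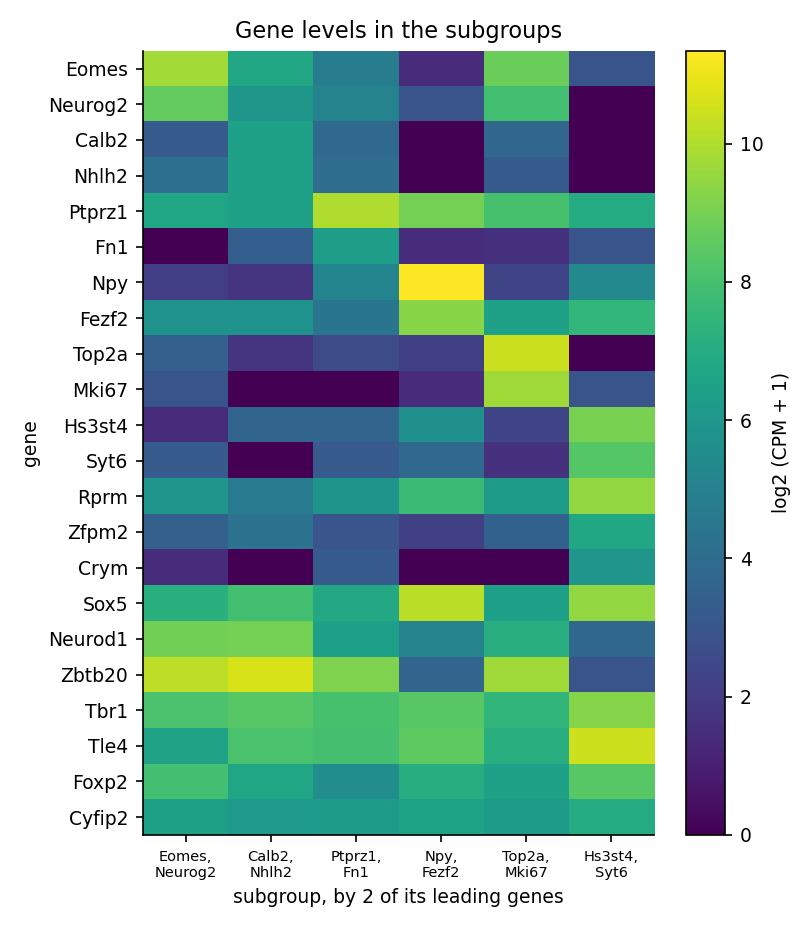
Level of 22 genes, as log2 (CPM + 1), in the 6 subgroups of the Tbr1-gated cells (columns, each named by 2 of its genes), both libraries summed. Hs3st4, Syt6, Rprm, Zfpm2 and Crym are at their highest in the rightmost subgroup, in which Eomes, Neurod1 and Zbtb20 are low.

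Both libraries contributed to every subgroup. The Eomes subgroup held 31 knockout-labelled (26.5%, interval 18.8 to 35.5%) and 20 wild-type cells (18.5%, 11.7 to 27.1%), and the layer 6 corticothalamic-like subgroup 8 (6.84%, 3.00 to 13.03%) and 17 (15.7%, 9.45 to 24.0%). The Calb2 subgroup held 19 knockout-labelled and 27 wild-type cells, the Ptprz1 subgroup 26 and 18, the Npy subgroup 21 and 16 and the Top2a subgroup 12 and 10. For each subgroup the intervals of the libraries overlapped. Depth differed along with the library. The Ptprz1 subgroup had a median of 18459.5 UMIs and 8 marked doublets among its knockout-labelled cells and 6529 UMIs and 2 marked doublets among its wild-type cells. In the Calb2 subgroup the median was 6023 UMIs in knockout-labelled and 11980 UMIs in wild-type cells. It was also lower in knockout-labelled cells of the Eomes (9417 and 13569), Npy (13103 and 17967.5), Top2a (17783 and 24112) and layer 6 corticothalamic-like (3965 and 4833 UMIs) subgroups.

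**Figure D3:**
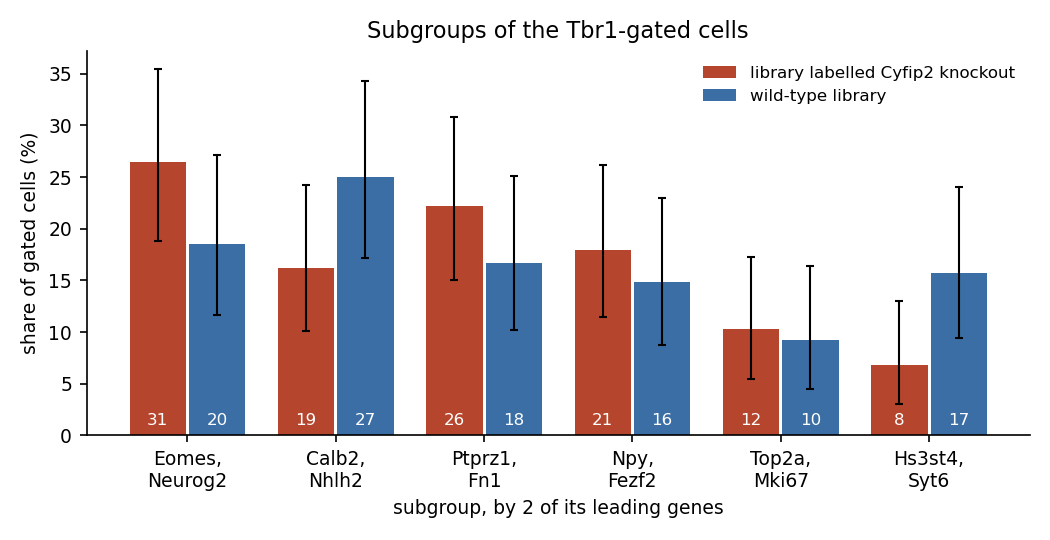
Share of the gated cells of each library (percent) in the 6 subgroups, with exact 95% binomial intervals that cover counting error only and the number of cells at the foot of each bar. The Hs3st4 and Syt6 subgroup holds 8 of 117 knockout-labelled and 17 of 108 wild-type cells, with overlapping intervals.

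Within the layer 6 corticothalamic-like subgroup the levels rested on 8 knockout-labelled and 16 wild-type cells, with 1 wild-type barcode of blood transcripts set aside. Hs3st4 had 21 UMIs (597 CPM) in the knockout-labelled and 59 UMIs (512 CPM) in the wild-type cells, Syt6 15 (427 CPM) and 34 (295 CPM), and Rprm 40 (1138 CPM) and 69 (599 CPM). Tle4 had 32 UMIs (910 CPM) and 181 UMIs (1571 CPM), and Foxp2 12 (341 CPM) and 38 (330 CPM). Sox5 stood at 797 CPM in knockout-labelled and 712 CPM in wild-type cells of the subgroup, and Fezf2 at 171 and 182 CPM. So few cells allow no statement on a genotype.

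Other cell types were present among the gated cells. Cells with at least 10 UMIs of 6 dividing-cell markers numbered 13 (11.1%) in the knockout-labelled and 10 (9.26%) in the wild-type library, and cells with at least 3 UMIs of Eomes 37 (31.6%) and 24 (22.2%). At least 20 UMIs of blood, choroid plexus, vascular or macrophage markers were found in 3 barcodes of each library. In the knockout-labelled library 1 of these held 11567 UMIs of Ttr, the transthyretin of choroid plexus, among 35756 and was marked as a doublet, another held 55 UMIs of Ttr, and another held 547 UMIs of 9 macrophage markers, among them 210 of Pf4. In the wild-type library 2 held 988 and 951 UMIs of macrophage markers, and another 31 of erythroid markers. The macrophage list summed to 381 CPM in knockout-labelled and 1300 CPM in wild-type gated cells, with 98.9% and 99.8% of it in 3 barcodes. The 11 GABAergic markers, of which the rule itself caps Dlx1, Dlx2 and Dlx6os1, summed to 55.7 and 25.4 CPM against 825 and 631 CPM in the free RNA of empty droplets, with Slc32a1 without a UMI in either library. Of the subplate markers outside the rule Moxd1 had no UMI, which, taken as up to 3 UMIs, allows 2.06 CPM in the knockout-labelled and 2.01 CPM in the wild-type cells. Its absence does not tell whether subplate cells were present, since a comparison gate of subplate cells held only 1 and 2 UMIs of it. The subplate list, of which the rule caps Nxph4 and Cplx3, summed to 77.0 and 82.9 CPM, against 62.2 and 67.4 CPM in free RNA. On that list Tmem178 had 57 and 68 UMIs, and Ccn2 0 and 1. Without dividing, Eomes-carrying and non-neural-marker cells 75 knockout-labelled and 76 wild-type cells remained.

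Cyfip2 itself did not separate the libraries in the Tbr1-gated cells. It had 117 UMIs in 70 of 117 knockout-labelled cells (80.4 CPM) and 121 UMIs in 64 of 108 wild-type cells (80.9 CPM), a log2 ratio of -0.01 (interval -0.39 to 0.37). Since the labels do not say which part of the gene is gone, transcripts that are still made and counted cannot be told apart from an intact gene. The comparison gates described below went opposite ways. Cyfip2 stood at 83.0 CPM in knockout-labelled and 43.9 CPM in wild-type cells of the subplate gate (0.92, 0.42 to 1.43). In the layer 5 gate it stood at 96.0 and 112 CPM (-0.22, -0.33 to -0.11). In cells with at least 10 UMIs of C1qa, C1qb and C1qc, a macrophage signature, Cyfip2 stood at 48.3 CPM in the knockout-labelled and 3.90 CPM in the wild-type library. Its UMIs there lay in 77 of 182 and 5 of 77 cells. With every cell thinned to 1000 UMIs, 10.3% of knockout-labelled and 6.48% of wild-type gated cells kept a Cyfip2 UMI (59.8% and 59.3% unthinned, at median depths of 10976 and 13005.5 UMIs), against 4.396% and 1.299% of the C1q cells (42.3% and 6.49% unthinned, at 14758.5 and 15527 UMIs). Over the subgroups Cyfip2 ranged from 66.3 CPM in the Calb2 subgroup to 126 CPM in the layer 6 corticothalamic-like one, where it rested on 19 UMIs.

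None of the 7 measured WAVE genes differed by 1.5-fold, beside 1.47% higher and 2.01% lower of all measured genes. At such shares a list this short can hold no called gene without differing from the rest. Cyfip1, the paralog of Cyfip2, stood at 50.9 CPM in knockout-labelled and 59.5 CPM in wild-type cells (log2 ratio -0.23), Nckap1, the scaffold partner of the CYFIP proteins, at 106 and 110 CPM (-0.05), and Abi2 at 107 and 110 CPM (-0.04). Abi1, an adaptor subunit, was at 45.4 and 62.2 CPM (-0.46, interval -0.93 to 0.02; -0.58, -1.08 to -0.08, without the 6 barcodes of non-neural markers), Wasf1, which activates Arp2/3, at 49.5 and 64.2 CPM (-0.38, -0.84 to 0.08), and Brk1, the smallest subunit, at 151 and 146 CPM (0.04). Wasf2, Wasf3, Nckap1l and Abi3 lay under the limits set for a measured gene. The median log2 ratio of the 7 was -0.05, beside -0.01 over all measured genes.

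The share of called cells in the gate was 0.910% (interval 0.753 to 1.09%) in the knockout-labelled and 1.19% (0.976 to 1.43%) in the wild-type library, a ratio of 0.766 (0.584 to 1.00). Among called cells of at least 5000 UMIs only, thinned to 5000 UMIs, the shares were 0.535% and 0.558%. In a gate with the lower limits alone, among all called cells, the shares were 5.43% and 5.21%, so the direction turned with the ceilings. Other gates of cortical neurons gave 4.73% and 6.79% (layer 5: Fezf2 with at least 3 Bcl11b UMIs) and 0.459% and 0.880% (subplate: Nxph4 with Cplx3). Among dissociated cells a lower share and a lower yield of the type cannot be told apart.

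Of 5035 genes measured in the Tbr1-gated cells (at least 20 CPM in either library and 100 UMIs in both together), 74 (1.47%) were at least 1.5-fold higher in the knockout-labelled library with an interval above 0 on the log2 scale, and 101 (2.01%) at least 1.5-fold lower. The genes with the largest differences were carried by 1 or 2 barcodes of a library. Ttr stood at 8050 CPM in knockout-labelled and 24.7 CPM in wild-type cells, with 98.8% of its knockout-labelled UMIs in 1 barcode. Ecrg4, also known from choroid plexus, stood at 63.2 and 10.0 CPM, with 84.8% of the knockout-labelled UMIs in 1 barcode. Of the 12 genes furthest below, 11 are genes that macrophages are known to carry: Cxcl2 (2.06 CPM in knockout-labelled and 90.9 CPM in wild-type cells), Klf2 (5.50 and 85.6 CPM), Lyve1, Cyba, Cx3cr1, Mrc1 (30.9 and 138 CPM), C1qa (50.9 and 225 CPM), Fcer1g, F13a1, C1qb and C1qc. Cxcl2, Lyve1, Fcer1g and C1qc had UMIs in 1 knockout-labelled and 2 wild-type barcodes only.

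With the 6 barcodes of non-neural markers left out, 71 of 4870 measured genes (1.46%) were higher and 61 (1.25%) lower by the same rule, 59 and 54 of them among the genes called before, and the interval lay above 0 for 5.07% and below 0 for 5.2%. That choice was made after the data were seen. Ttr then stood at 65.9 CPM in knockout-labelled and 25.2 CPM in wild-type cells (log2 ratio 1.39), while in the free RNA of empty droplets it stood at 2070 and 1016 CPM. Ecrg4 was at 10.1 and 10.5 CPM (-0.05). The values that follow are from all gated cells, with those without the 6 barcodes beside them where a call or the value depended on these.

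**Figure D4:**
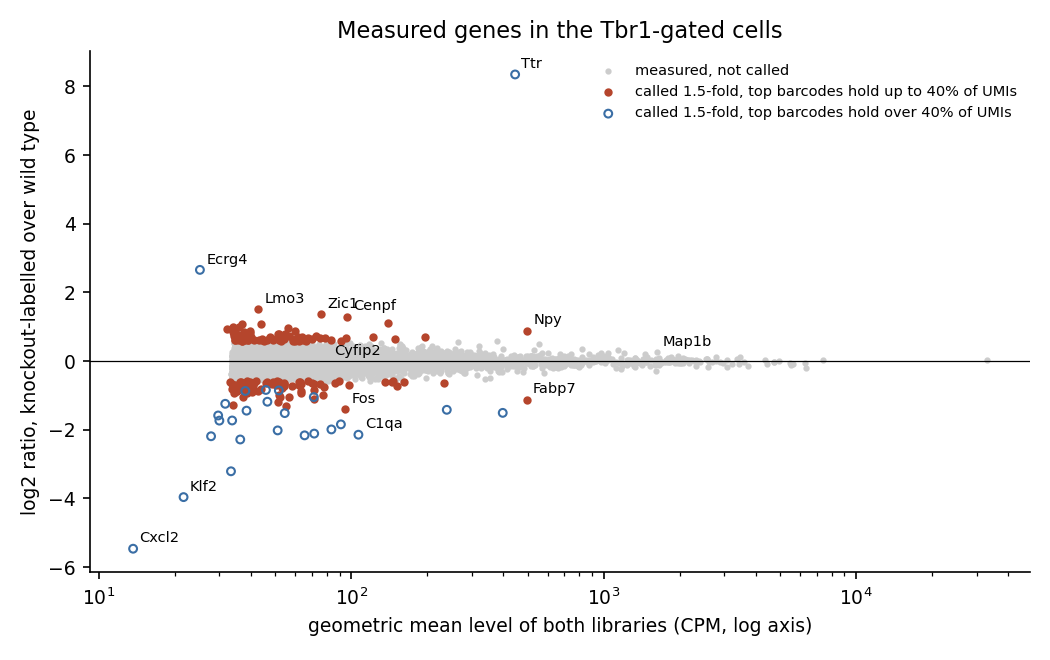
Log2 ratio (knockout-labelled over wild type) of each measured gene, against its geometric mean level in CPM on a log axis. Genes called 1.5-fold are split by whether the top barcodes of the libraries hold over 40% of their UMIs (open circles, such as Ttr, Ecrg4 and C1qa) or not (filled).

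Among genes spread over more cells, Lmo3, a LIM-only cofactor on the layer 6 list, had 105 UMIs in 38 knockout-labelled cells (72.2 CPM) and 38 UMIs in 24 wild-type cells (25.4 CPM), a log2 ratio of 1.51 (0.96 to 2.08). The difference was widest in 2 subgroups, with 188 CPM in knockout-labelled and 24.6 CPM in wild-type cells of the Npy subgroup and 73.0 CPM and no UMI in those of the Ptprz1 subgroup. In the layer 6 corticothalamic-like cells Lmo3 had 3 UMIs (85.3 CPM) and 7 UMIs (60.8 CPM). Zic1, a zinc finger factor of medial forebrain lineages, had 177 UMIs in 36 knockout-labelled cells (122 CPM) and 71 in 19 wild-type cells (47.5 CPM), a log2 ratio of 1.36 (0.95 to 1.78). It was higher in the knockout-labelled cells of the Eomes (78.1 and 31.3 CPM), Calb2 (289 and 93.8 CPM), Ptprz1 (126 and 34.9 CPM) and Top2a (254 and 102 CPM) subgroups, and had 0 and 1 UMI in the layer 6 corticothalamic-like one. Nrp2, a semaphorin receptor, stood at 53.6 CPM in knockout-labelled and 25.4 CPM in wild-type cells (1.08, 0.50 to 1.68), with 32 of its 78 knockout-labelled UMIs and 1 of its 38 wild-type UMIs in the Ptprz1 subgroup.

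Npy, the neuropeptide Y precursor, stood at 677 CPM in knockout-labelled and 366 CPM in wild-type gated cells (0.89, 0.74 to 1.04), 962 of 985 and 539 of 547 UMIs lying in the Npy subgroup, where it reached 3280 and 1891 CPM. Only 25 knockout-labelled and 18 wild-type cells held a Npy UMI. In the same subgroup Ptprt, a receptor phosphatase, stood at 269 and 151 CPM, and Pcdh17, a protocadherin, at 184 and 91.2 CPM. Over all gated cells Ptprt had a log2 ratio of 0.97 (0.50 to 1.44), Pcdh17 one of 0.89 (0.44 to 1.35), and Ankmy2 and Gprasp2 one of 1.00 each. In the gate without upper limits, 698 knockout-labelled and 473 wild-type cells, Npy had a log2 ratio of -0.11, Lmo3 of 0.14 and Zic1 of 1.02.

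Of the 12 genes furthest above, 4 are known from mitosis, and all were picked for their size. Cenpf, a kinetochore protein, stood at 151 CPM in knockout-labelled and 61.5 CPM in wild-type cells (1.30), Ube2c, an E2 enzyme of the anaphase-promoting complex, at 205 and 95.6 CPM (1.10), Cenpe, a kinetochore motor, at 63.9 and 30.1 CPM (1.09) and Cdc20, an activator of that complex, at 44.7 and 23.4 CPM (0.93), the last falling under the limit of 100 UMIs without the non-neural barcodes. The Top2a subgroup, 12 knockout-labelled and 10 wild-type cells, held 218 of 220 and 90 of 92 UMIs of Cenpf. Of these cells 5 knockout-labelled and 1 wild-type were marked as likely doublets. The list of 6 dividing-cell markers summed to 907 CPM in knockout-labelled and 663 CPM in wild-type cells, no marker being without a UMI, with 41.5% and 49.3% of it in 3 barcodes. Genes of dividing cells differed in both directions within the Top2a subgroup. Top2a stood at 1551 CPM in knockout-labelled and 1223 CPM in wild-type cells, Mki67 at 922 and 777 CPM, Pclaf at 1198 and 1112 CPM, and Hist1h1b, a linker histone, at 689 and 1096 CPM.

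On the lower side, Fabp7, the brain fatty acid binding protein of radial glia, stood at 336 CPM in knockout-labelled and 732 CPM in wild-type cells (log2 ratio -1.12, interval -1.28 to -0.97). Aldoc (16.5 and 54.8 CPM, -1.73), an aldolase of radial glia and astrocytes, and Fgfbp3 (18.6 and 61.5 CPM, -1.73), which binds FGFs, were lower as well. The 8 radial glia markers summed to 773 CPM in knockout-labelled and 1222 CPM in wild-type cells, 38.8% and 68.0% of it in 3 barcodes, and none was at 0. The markers did not go one way: Fabp7, Aldoc and Vim, an intermediate filament (120 and 180 CPM, -0.59), were lower, Pax6, a progenitor factor, was higher (120 and 75.6 CPM, 0.66, interval 0.31 to 1.02), and Hes1, a Notch target, had 18 and 3 UMIs. Sox2 (0.09), Slc1a3 (-0.16) and Hes5 (-0.50) had intervals that held 0. With the richest barcode of each library left out for each gene, Fabp7 had a log2 ratio of -0.87, Aldoc of -1.54 and Fgfbp3 of -0.69. Only Fabp7 was still called then. A single wild-type barcode held 70.7% of the wild-type UMIs of Aldoc, and 64.1% of those of Fgfbp3 also lay in 1 barcode. Of the genes spread more evenly, Dazap2 stood at 36.4 and 75.6 CPM (-1.05), Nin, a centrosome protein, at 55.0 and 110 CPM (-0.996), Sla, an adaptor of signalling, at 37.1 and 72.9 CPM (-0.97), Sema6d, a transmembrane semaphorin, at 46.0 and 87.6 CPM (-0.93) and Tmem158 at 46.7 and 85.6 CPM (-0.87). Nin and Sla are at their highest in the layer 6 corticothalamic-like subgroup, at 326 and 266 CPM over both libraries, and that subgroup held more of the wild-type than of the knockout-labelled cells. With the subgroups given equal weight in both libraries the log2 ratio was -0.53 for Nin and -0.70 for Sla. Within that subgroup Nin had 13 UMIs (370 CPM) in knockout-labelled and 36 (313 CPM) in wild-type cells, and Sla 7 (199 CPM) and 33 (287 CPM). In the Npy subgroup Nin stood at 198 and 319 CPM and Sla at 119 and 189 CPM. The part of the layer 6 corticothalamic-like subgroup in these differences was not tested.

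Of 14 layer 6 corticothalamic genes outside the rule, 8 were measured, 1 higher (Lmo3) and 1 lower (Hs3st4) by the 1.5-fold rule, which 1.47% and 2.01% of all measured genes met. Hs3st4 had 47 UMIs in 20 knockout-labelled cells (32.3 CPM) and 78 UMIs in 26 wild-type cells (52.2 CPM), a log2 ratio of -0.69 (-1.25 to -0.15). With the subgroups given equal weight in both libraries the ratio was 0.30. Rprm stood at 131 CPM in knockout-labelled and 104 CPM in wild-type cells (0.32, 0.01 to 0.64), Nfia, a nuclear factor of deep layers and glia, at 641 and 720 CPM (-0.17) and Sox5 at 364 and 374 CPM (-0.04). The median of the 8 was -0.09. Bcl11b, capped by the rule, stood at 64.6 CPM in knockout-labelled and 42.8 CPM in wild-type cells (0.59), a description only.

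Of 31 measured transcription factors of cortical projection neurons, Lmo3 and Zic1 were higher and Ski, a co-repressor, lower (41.2 CPM in knockout-labelled and 62.2 CPM in wild-type cells, -0.59; -0.55 and no longer called without the non-neural barcodes). By the 1.5-fold rule 1.47% of all measured genes were higher and 2.01% lower. The interval lay above 0 for 4 (12.9%) and below 0 for 11 (35.5%) of the 31, beside 5.08% and 6.51% of all measured genes, and their median was -0.04. Intervals narrow as counts rise, so such shares also depend on how abundant the listed genes are. Nr2f1 (COUP-TFI), a factor of cortical areas, stood at 214 and 272 CPM (-0.35). Of 9 measured genes reported to act with or under Tbr1, none had an interval off 0: Auts2 stood at 1128 CPM in knockout-labelled and 1175 CPM in wild-type cells (-0.06), Bcl11a at 611 and 596 CPM (0.03), and Grin2b, an NMDA receptor subunit, at 230 and 246 CPM (-0.10).

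Lists of axon growth and synapse were mixed in direction. Of 32 measured guidance genes, 2 were higher, Nrp2 and Robo1, a Slit receptor (186 CPM in knockout-labelled and 120 CPM in wild-type cells, 0.63), and 2 lower, Sema6d and Nfasc, a neural adhesion molecule (72.9 and 110 CPM, -0.59), with a list median of 0.01. Over all measured genes 1.47% were higher and 2.01% lower, and the interval lay above 0 for 5 (15.6%) and below 0 for 6 (18.8%) of the 32, beside 5.08% and 6.51% of all. Of 19 cadherins, protocadherins, teneurins and latrophilins, 1 was higher (Pcdh17) and none lower, Tenm2 standing at 97.6 and 145 CPM (-0.57; -0.60 and called lower without the non-neural barcodes), with a median of 0.01. Of 27 glutamate receptor and synapse genes, Pclo, an active zone scaffold (93.5 and 56.2 CPM, 0.73), and Syt1, the calcium sensor of release (99.7 and 62.9 CPM, 0.66), were higher, and Gria3, an AMPA receptor subunit (39.9 and 64.2 CPM, -0.69), was lower. Snap25, a SNARE of the same machinery, stood at 108 and 152 CPM (-0.49), and the list had a median of -0.04. Pclo and Syt1 are lowest in the Eomes, Calb2 and Top2a subgroups (5.0 to 16.8 CPM of Syt1) and Syt1 is at 144 to 182 CPM in the others. Of 12 ion channel genes, Kcnh7, a potassium channel (76.3 and 50.8 CPM, 0.59), was higher and none was lower, with a median of 0.25.

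The WAVE complex acts on actin, and actin and microtubule genes were listed for that reason. Of 39 measured actin assembly genes none was called, 1 had an interval above 0 (Pak3, a Rac effector kinase, 118 CPM in knockout-labelled and 82.2 CPM in wild-type cells, 0.52) and 6 (15.4%, beside 6.51% of all measured genes) had one below 0, among them Arpc4, an Arp2/3 subunit (66.7 and 99.0 CPM, -0.57; -0.24 without the non-neural barcodes). The list median was -0.08. Of 31 migration and microtubule genes none was called, with 4 intervals above 0 (12.9%, beside 5.08% of all measured genes) and 6 below 0 (19.4%, beside 6.51%) and a median of -0.06. Map1b stood at 1782 and 1480 CPM (0.27), Lrp8, a reelin receptor, at 290 and 229 CPM (0.34) and Kif2a at 155 and 118 CPM (0.39). Of 13 genes of cap-binding translation control, where CYFIP proteins also act, none was called. The 1.5-fold rule called 1.47% of all measured genes higher and 2.01% lower, so lists of these sizes may hold no called gene. Fmr1, which encodes FMRP, stood at 83.8 and 114 CPM (-0.45, -0.79 to -0.10), and the median was -0.07.

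Of 11 measured immediate early genes, 3 were lower by the 1.5-fold rule, beside 2.01% of all measured genes, Fos (58.4 CPM in knockout-labelled and 153 CPM in wild-type cells, -1.39), Dusp1 (48.8 and 105 CPM, -1.11) and Klf2, and the list median was -0.40. Without the 6 non-neural barcodes 8 were measured and none was called, Fos standing at 50.0 and 73.6 CPM (-0.56), Dusp1 at 46.4 and 61.7 CPM (-0.41) and Klf6 at 46.4 and 39.9 CPM (0.22), with a median of -0.12. Of 12 endoplasmic reticulum chaperone and stress genes, none was called. Hsp90b1, a chaperone, stood at 375 and 277 CPM (0.44) and Atf4, a stress transcription factor, at 68.7 and 96.3 CPM (-0.49), and the median was 0.16. No gene was called among 12 mitochondrially encoded transcripts (median 0.02), 41 nuclear genes of oxidative phosphorylation (0.05), 16 of glycolysis and hypoxia (0.01), 11 of cholesterol synthesis (0.02) and 81 ribosomal protein genes (0.00), and Npy was the only one of 3 measured neuropeptide genes called. By the same rule 1.47% of all measured genes were higher and 2.01% lower.

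**Figure D5:**
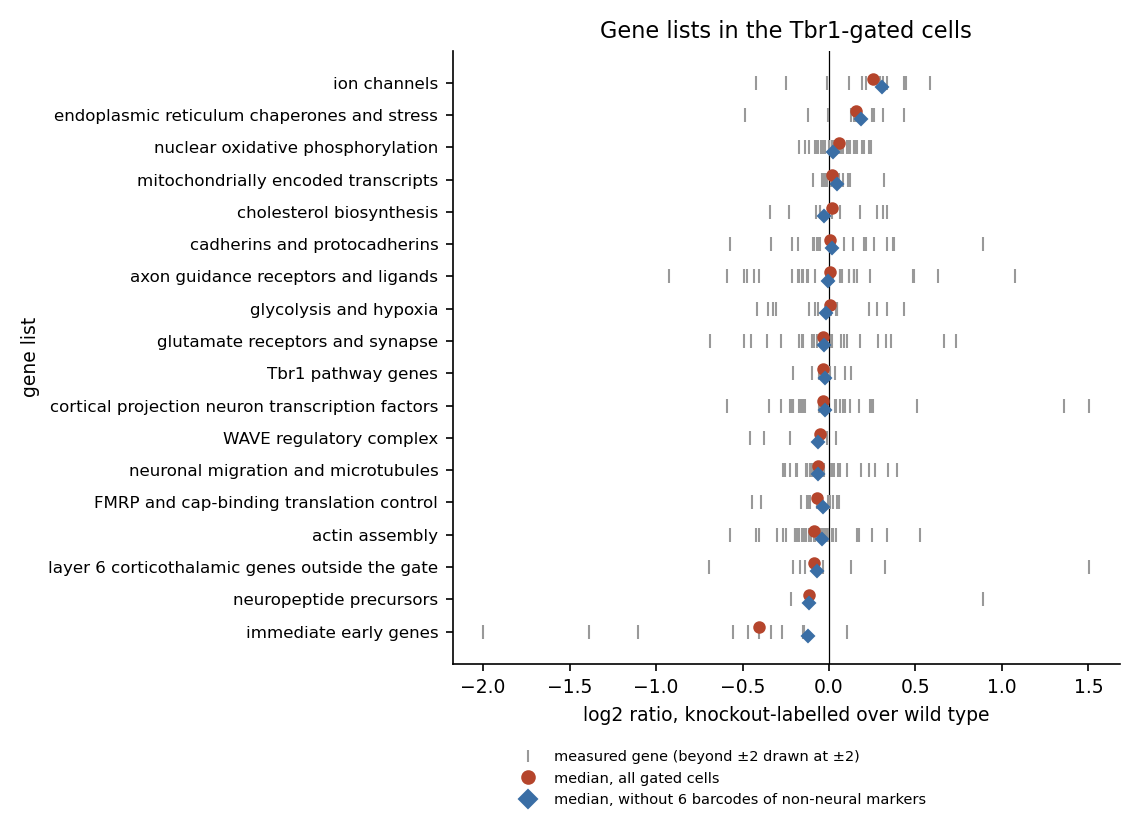
Log2 ratio (knockout-labelled over wild type) of the measured members of 18 gene lists (grey ticks), with the list median over all gated cells (circles) and without 6 barcodes of non-neural markers (diamonds). The median of the immediate early genes lies at -0.40 over all gated cells and at -0.12 without those barcodes.

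Set beside other gates of cortical neurons, the Tbr1-gated cells did not hold the most of the layer 6 corticothalamic genes outside the rule, which summed to 3921 CPM, against 4352 CPM in the layer 5 gate and 4350 CPM in the subplate gate. The layer 5 gate requires 1 gene of that list, Fezf2. Over both libraries the Tbr1-gated cells had 42.4 CPM of Hs3st4, 117 CPM of Rprm and 5.08 CPM of Crym, the layer 5 gate 80.5, 413 and 105 CPM and the subplate gate 22.8, 148 and 15.5 CPM. Eomes stood at 269 CPM in the Tbr1-gated cells, 308 CPM in the subplate gate and 15.5 CPM in the layer 5 gate. The library ratios of the genes above were not alike in these gates. Zic1 had a log2 ratio of 1.36 in the Tbr1-gated cells, 1.05 (0.82 to 1.29) in the subplate gate and 0.65 (0.43 to 0.88) in the layer 5 gate. Lmo3 had 1.51 in the Tbr1-gated cells and 0.07 (-0.03 to 0.17) in the layer 5 gate, in which it was more abundant, at 128 CPM in knockout-labelled and 122 CPM in wild-type cells. Npy had 0.89 and 0.44 (0.37 to 0.51) in the same gates, and Fabp7 -1.12 and 0.13 (0.01 to 0.24). With 1 library a genotype these differences between gates were not tested.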

How the data were processed

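The deposited files hold UMI counts per gene and droplet barcode for every barcode, and per the file headers they come from Cell Ranger 4. The genome was mm10, per the submitters' processing notes. For its annotation and settings, nothing is given in the sources used here. Per the labels' protocols, forebrains were dissociated with papain. The authors deposited no normalised values in these files, and no authors' cell labels were used. A barcode was called a cell from 1000 UMIs and 500 genes upwards, with no more than 10% of UMIs mitochondrial. The libraries held 150828048 (knockout-labelled) and 123978461 (wild-type) UMIs.

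From these counts, the UMIs of the gated cells were summed per library and scaled to CPM. A ratio has an exact conditional Poisson interval. A gene was called at a log2 ratio of 0.58 or more in size with an interval off 0. Markers, gene lists, members and comparison gates were chosen with earlier results of these data known. Named were the 12 called genes furthest in each direction (without Xist, Tsix, Y-linked, haemoglobin, mitochondrial and unnamed transcripts), genes of the rule, WAVE genes, up to 4 a list and up to 6 leading genes a subgroup. Npy, Pcdh17, and the genes lowest without the non-neural barcodes (Fgfbp3, Fabp7, Dazap2, Nin, Sla, Tmem158), were added after their values were seen.

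Subgroups came from Leiden clustering (scanpy 1.11.5; 2000 variable genes, 20 components, 15 neighbours, resolution 0.5). Their leading genes and levels leave out the 6 barcodes of non-neural markers. Doublets were marked with Scrublet within a library at 0.8% per 1000 cells, 1322 (10.3%) of knockout-labelled and 660 (7.26%) of wild-type called cells. Free RNA is the sum of barcodes under 100 UMIs. Gene positions are from the GENCODE annotation of mm10. The ratio and its rule were tested on simulated data.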

Additional observations from a re-analysis of the deposited data

How the results depend on the processing

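No paired analysis was possible because each genotype has 1 library, and no library could be left out. Of 13 planned settings and 4 added after the data were seen, 15 kept the count of genes higher and 12 that of genes lower within 1.5 times. An exception for genes higher (74) was 19 with gated cells of at least 5000 UMIs thinned to 5000 UMIs. Another was 46 without dividing, Eomes-carrying and non-neural-marker cells. Exceptions for genes lower (101) were 32 with the cells thinned, 20 without the upper limits of the gate, 67 with at least 3 Tbr1 and 5 Tle4 plus Foxp2 UMIs, 61 without the non-neural barcodes and 49 without all 3 kinds of cell. The genes themselves depended more on who was gated: 3 higher and 4 lower genes were shared with the gate applied after thinning, and 5 and 3 with the gate without upper limits, where 74.0% of called genes were higher, against 42.3% in the gate as given. Without the highest Scrublet scores 54 and 103 genes were called, with 31 and 66 shared, and 34.4% higher; without the non-neural barcodes 53.8% were higher. The ratio of shares (0.766) was 1.04 without the upper limits and 0.471 under the higher minimum. Cyfip2 had a log2 ratio of -0.51 where the gate was applied after thinning.

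Log2 ratios changed sign for 15 of the called genes named above. With the gate applied after thinning they were -0.80 for Ptprt, 0.32 for C1qa, 2.64 for F13a1, 1.67 for Tmem158, 0.19 for Hs3st4, -0.40 for Robo1, -0.11 for Pclo and 0.40 for Gria3. Without the upper limits they were -0.0044 for Ptprt, -0.11 for Npy, 1.06 for Cxcl2 and 0.10 for C1qb. Under the higher minimum they were -2.20 for Ecrg4, -0.58 for Bcl11b and 0.092 for Dusp1. With gated cells thinned they were -0.0050 for Pclo and -0.27 for Kcnh7, with equal subgroup weights 0.30 for Hs3st4, and without the non-neural barcodes -0.051 for Ecrg4. The thinned and stricter gates hold fewer cells (49 and 39, or 22 and 33) and fewer measured genes (2195 and 1484); beyond that the cause was not tested.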
